A study of Mus musculus with 2 samples.

Results

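The transcription factors that maintain hematopoietic stem cell (HSC) identity were followed as a group of 10 genes, chosen by name: *Gata2*, *Runx1*, *Tal1*, *Lyl1*, *Lmo2*, *Fli1*, *Erg*, *Gfi1b*, *Meis1* and *Mecom*. All 10 were found among the 24421 gene symbols counted, and all 10 passed the filter of a mean of at least 1 CPM (a count scaled to the total gene counts of its library, where 3 counts in WT are 0.521 CPM). RNA was sequenced from 2 libraries of C57BL/6 HSCs, 1 labelled WT (Ezh2 +/+ CreERT+/-) and 1 labelled Ezh2 KO (Ezh2 Δ/Δ CreERT+/-, called KO-labelled here), and the comparison was made to find genes with higher expression where *Ezh2*, the main H3K27 methyltransferase of Polycomb repressive complex 2, had been deleted. Both groups carried CreERT, both came from CD45.2 marrow transplanted into irradiated CD45.1 hosts, and both were treated with tamoxifen (100 μl at 10 mg/ml daily for 5 days) 1 month before the sort, which kept Lin-, Sca-1+, c-kit+ cells that were also CD34-, CD150+, CD48- and Flt3-. The labels give neither the promoter that drives CreERT, nor the age or sex of the mice, nor how many mice went into a library.

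With a single library on each side, no difference could be checked against replicates, and all intervals cover counting error only. Reads amplified by PCR without molecular identifiers are also not independent molecules. Gene counts summed to 5763118 (WT) and 4157280 (KO-labelled). The libraries also differed in ways that cannot be told apart from genotype. *Ezh2* itself had 166 and 129 raw counts (142.5 and 150.3 normalised), so its normalised count was not lower where deletion is labelled. A count over the whole gene also takes reads from exons outside a deleted segment and so does not check the deletion, and the label is used as a name only. In the same order *Xist* had 801 and 4 counts, and the Y-linked *Ddx3y* had 0 and 275. Reads of this Y-linked gene place male cells in the KO-labelled library, and none were seen in WT. *Fos*, an immediate-early gene, had 13853 and 4892 normalised counts. Of 10 HSC markers, all were counted in both libraries and none was called by the rule given later, with *Ctnnal1*, *Slamf1* and *Fgd5* at least 1.5-fold lower in the KO-labelled library. Most lists of markers of more mature cells had a higher sum in the KO-labelled library. The summed levels were 0 and 768.5 CPM for 4 eosinophil genes (a count of 0 in WT allows up to 0.521 CPM for each), 1634 and 3158 CPM for 6 granulocyte genes, 56.6 and 191.7 CPM for 5 erythroid genes, and 4.86 and 32.5 CPM for 5 B lymphoid genes. Of these, 4 of 4, 3 of 6 (*Ngp*, *Ltf* and *S100a8*), 3 of 5 and 3 of the 3 tested were called higher, while the granulocyte gene *Elane* had 738.0 and 435.8 normalised counts (log2 ratio -0.76) and 5 megakaryocyte genes summed to 287.2 and 206.6 CPM with 0 called. The part of these cells in the values of the factors was not tested. In bulk RNA, fewer cells of a type and less RNA per cell cannot be told apart.

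These factors act together. GATA2 (a zinc finger factor that binds GATA), RUNX1 (a Runt domain factor), the basic helix-loop-helix (bHLH) proteins TAL1 and LYL1, the LIM-only protein LMO2 that bridges DNA-binding proteins without binding DNA itself, and the ETS factors FLI1 and ERG occupy many of the same enhancers in blood stem and progenitor cells, including enhancers of their own genes. GFI1B is a zinc finger repressor that recruits the demethylase LSD1, MEIS1 is a homeodomain partner of HOX and PBX proteins, and MECOM (the EVI1 locus) is a zinc finger factor needed for HSC self-renewal.

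The median ratio of the group lay close to that of all genes tested. Counts were divided by a size factor for each library (normalised counts), and differences were expressed as the log2 ratio of the KO-labelled library over WT after adding 1. A gene was called when it differed by at least 2-fold and had an adjusted value under 0.01 in an exact binomial test of its 2 counts, a test that compares these libraries and not the conditions. Of the 10 factors, 0 were called higher, against 2.8% of the 12588 genes tested, and 0 were called lower, against 2.3%. With 10 genes, a count of 0 does not set the group apart from these shares. The log2 ratios ran from -0.14 for *Erg* to 0.78 for *Lyl1*, with a median of -0.014 beside -0.0032 for all genes tested. The median of the 10 was positive under total-count scaling (0.015, beside 0.026 for all genes tested). It was also positive after the deeper library was thinned (0.016, beside 0.0073). Of the 10, 4 lay above 0 and 6 below. Reads of the 10 genes together made up 0.353% of gene counts in WT and 0.373% in the KO-labelled library.

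**Figure D1:**
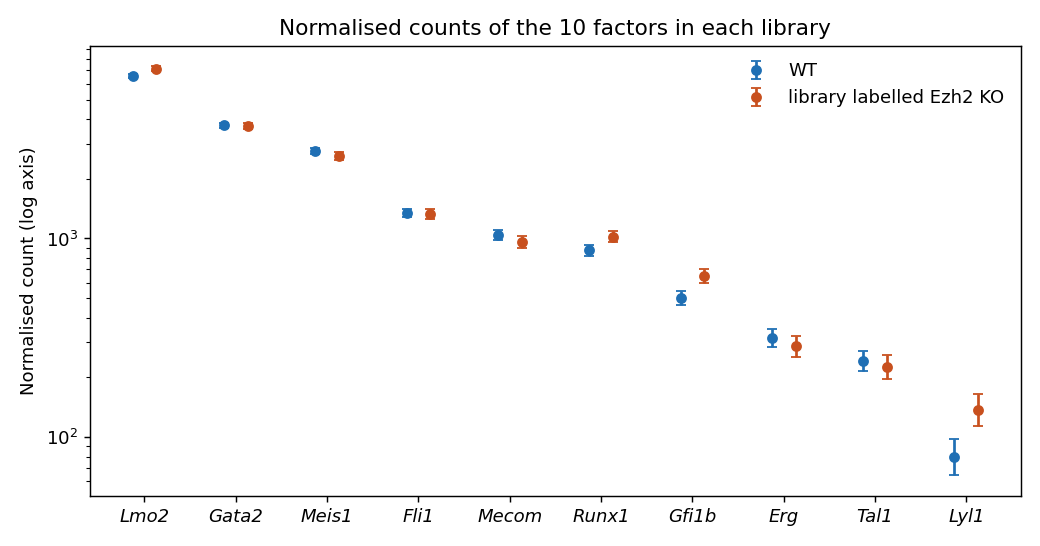
Normalised counts (log axis) of the 10 factors in the WT library (blue) and the KO-labelled library (orange), with exact 95% Poisson intervals as bars. The points of each gene lie close together except for *Lyl1* (79.8 and 137.5) and, less so, *Gfi1b* (503.7 and 647.9).

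A smaller threshold separated a single factor. At 1.5-fold with no test, 1 of the 10 was higher (*Lyl1*) and 0 were lower. All 10 had a mean of at least 100 normalised counts, and among the 8083 genes at that level 3.15% were at least 1.5-fold higher and 4.08% at least 1.5-fold lower, while 20.5% of all genes tested passed 1.5-fold in either direction. With no fold threshold, 4 of the 10 factors had an adjusted value under 0.01, namely *Lyl1*, *Gfi1b*, *Runx1* and *Lmo2*, all with higher values in the KO-labelled library. The same was true, in either direction, of 24.3% of those 8083 genes, so an interval that leaves out 0 was common between these libraries.

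**Figure D2:**
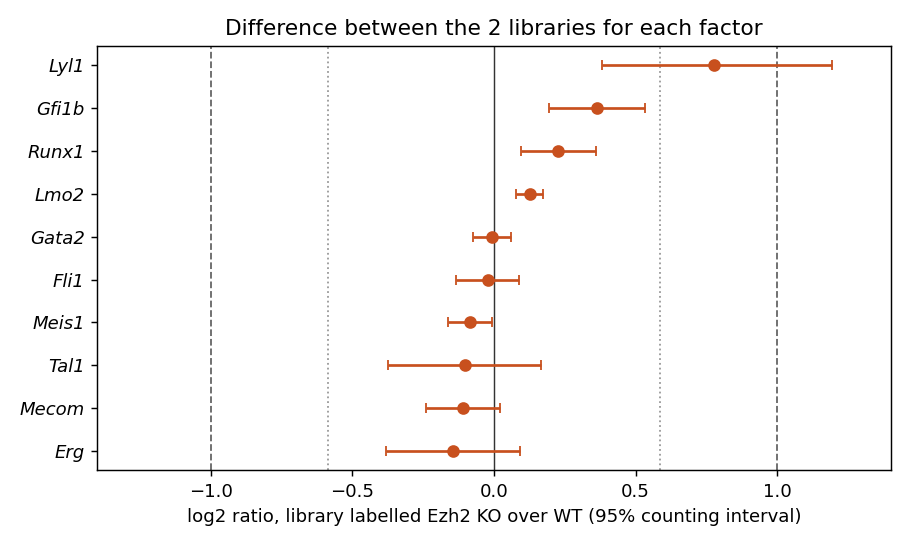
Log2 ratio of the KO-labelled library over WT (horizontal axis) for each factor, with exact 95% intervals for counting error. Dotted lines mark 1.5-fold and dashed lines 2-fold. *Lyl1* alone lies past a dotted line, at 0.78, and the other 9 points lie between -0.14 and 0.36.

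LMO2 and its DNA-binding partner GATA2 were the most abundant. *Lmo2* (chromosome 2, 103957986 to 103981878 in mm10, plus strand) had 7646 raw counts in WT and 6145 in the KO-labelled library, or 6561 and 7161 normalised counts. Its log2 ratio of 0.13 (95% interval 0.077 to 0.17) is a difference of 1.09-fold, which the depth of this gene resolves from counting error. *Gata2* (chromosome 6, 88193891 to 88207032, plus strand) had 4330 and 3174 raw counts, or 3716 and 3699 normalised counts. The levels of *Gata2* were within counting error of each other (log2 ratio -0.0066, interval -0.073 to 0.060), and the sign changed with the scaling. Since mast cells and basophils also express *Gata2*, their markers were read beside it. *Ms4a2* and *Cma1* had 0 counts in both libraries, *Mcpt8* had 0 and 2, *Fcer1a* 0 and 3, and *Cpa3* 15 and 16.

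The ratios of the bHLH factors differed in sign. *Tal1* (chromosome 4, 115056426 to 115071755, plus strand) had 283 raw counts in WT and 194 in the KO-labelled library, or 242.9 and 226.1 normalised counts (log2 ratio -0.10, interval -0.37 to 0.17). *Lyl1* (chromosome 8, 84701457 to 84704715, plus strand), which can stand in for TAL1 in adult HSCs, had 93 and 118 raw counts, or 79.8 and 137.5 normalised counts. *Lyl1* was thus the only factor whose raw count was larger in the shallower library, with a log2 ratio of 0.78 (interval 0.38 to 1.19). It was also the least counted of the 10. In a band of 2218 genes with means from 100 to 200 normalised counts, 7.39% were at least 1.5-fold higher and the central 95% of log2 ratios ran from -0.85 to 0.83, which holds the value of *Lyl1*. Across all genes tested, 7.28% had a log2 ratio above that of *Lyl1*. *Lyl1* shares 4 bases of exon with *Nfix*, which lies on the other strand, and whether strand was used in counting is not given in the sources used here.

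The balance of *Tal1* and *Lyl1* within a library does not depend on scaling between libraries. *Tal1* made up 75.3% of the summed counts of the pair in WT (95% Clopper-Pearson interval 70.6% to 79.5%). Its share was 62.2% in the KO-labelled library (56.5% to 67.6%), and the intervals did not overlap. How often the intervals of unrelated gene pairs lie apart between these libraries was not tested. As CPM per kilobase of merged exon (RPKM), *Tal1* stood above *Lyl1* in WT (11.2 and 8.97) and below it in the KO-labelled library (10.7 and 15.8). In WT their intervals overlapped (9.95 to 12.6 and 7.24 to 10.98), and in the KO-labelled one they did not (9.21 to 12.3 and 13.1 to 18.9). *Tal2*, the third member of this bHLH family, had 0 counts in both libraries.

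The upstream windows of the pair and of *Gfi1b*, that is, of the factors with the highest ratios and of the bHLH paralogue of *Lyl1*, are given so that their letters can be set side by side. Each is the 250 bases before a RefSeq start on GRCm38.p6, read 5′ to 3′ on the strand of the gene: chr8:84701207-84701456 (plus) for *Lyl1*, chr4:115056176-115056425 (plus, the outer of its starts) for *Tal1* and chr2:28621983-28622232 (minus) for *Gfi1b*. Capitals mark matches on either strand to the GATA motif AGATAA, the ETS motif CGGAAG, the E-box CANNTG, the RUNX motif TGTGGT or the MEIS motif TGACAG, and no match overlapped that of another motif.

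Lyl1: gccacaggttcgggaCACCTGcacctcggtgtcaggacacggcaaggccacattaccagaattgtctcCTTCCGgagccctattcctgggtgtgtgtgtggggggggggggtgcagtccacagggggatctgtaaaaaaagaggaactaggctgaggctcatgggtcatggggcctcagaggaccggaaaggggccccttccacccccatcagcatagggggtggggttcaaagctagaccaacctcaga
Tal1: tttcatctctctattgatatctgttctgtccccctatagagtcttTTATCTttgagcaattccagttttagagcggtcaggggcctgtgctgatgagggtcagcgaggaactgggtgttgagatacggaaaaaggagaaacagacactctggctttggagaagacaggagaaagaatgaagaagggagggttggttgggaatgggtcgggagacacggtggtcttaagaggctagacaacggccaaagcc
Gfi1b: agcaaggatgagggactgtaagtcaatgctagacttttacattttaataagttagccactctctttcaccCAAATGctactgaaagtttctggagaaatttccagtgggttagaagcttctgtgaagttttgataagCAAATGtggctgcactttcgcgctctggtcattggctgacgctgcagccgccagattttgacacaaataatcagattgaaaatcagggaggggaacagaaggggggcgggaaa

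The *Lyl1* window lies within the gene *Nfix* but over none of its exons, and held an ETS match ending 177 bases before the start and an E-box match ending 230 bases before it. The *Tal1* window held a GATA match ending 200 bases before the start, and no ETS or E-box match. The *Gfi1b* window held 2 E-box matches, ending 175 and 108 bases before the start. Windows were found for 8 of the 10 factors, 14 windows in all with alternative starts counted separately. A GATA match was present in 2 of the 14, against 9.99% of all 32851 windows of this length, an ETS match in 3 (13.6%), an E-box match in 6 (66.2%), a RUNX match in 1 (14.05%) and a MEIS match in 2 (15.9%). These are letter matches and do not show binding.

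RUNX1 and the ETS factors differed by no more than 1.17-fold, the value of *Runx1*. *Runx1* (chromosome 16, 92601466 to 92826149, minus strand) had 1018 raw counts in WT and 878 in the KO-labelled library, or 873.6 and 1023 normalised counts (log2 ratio 0.23, interval 0.096 to 0.36). *Fli1* (chromosome 9, 32422204 to 32542861, minus strand) had 1569 and 1138 raw counts, or 1346 and 1326 normalised counts (log2 ratio -0.022, interval -0.13 to 0.089). *Erg* (chromosome 16, 95359169 to 95586593, minus strand) had 369 and 246 raw counts, or 316.7 and 286.7 normalised counts (log2 ratio -0.14, interval -0.38 to 0.093). The intervals of both ETS genes held 0, and the sign for *Fli1* changed under 2 of 8 alternatives. *Fli1* made up 81.0% of the counts of the ETS pair in WT (79.1% to 82.7%) and 82.2% in the KO-labelled one (80.1% to 84.2%), with overlapping intervals. Endothelial cells also express *Erg* and *Fli1*. The endothelial gene *Cdh5* had 0 counts in both libraries, and *Plvap* had 2 and 5 raw counts. In normalised counts, *Cldn5* had 16.3 and 17.5, *Kdr* 70.4 and 80.4 and *Emcn* 184.5 and 192.3, each with an interval that held 0. *Pecam1*, which HSCs express too, had 241.1 and 379.9 normalised counts. All 4 endothelial genes that passed the filter had log2 ratios above 0. The 6 endothelial genes summed to 103.9 and 139.5 CPM, and their part in the values of *Erg* and *Fli1* was not tested.

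GFI1B, the repressor of the group, had the next largest difference after *Lyl1*. *Gfi1b* (chromosome 2, 28609450 to 28621982, minus strand) had 587 raw counts in WT and 556 in the KO-labelled library, or 503.7 and 647.9 normalised counts, a difference of 1.29-fold (log2 ratio 0.36, interval 0.19 to 0.53). In the band of 4915 genes with means from 200 to 1000, the central 95% of log2 ratios ran from -0.61 to 0.54, which holds this value. *Gfi1b* made up 54.3% of the summed counts of *Gfi1b* and its paralogue *Gfi1* in WT (51.2% to 57.3%). In the KO-labelled library its share was 62.3% (59.1% to 65.5%), without overlap, and this was not set against unrelated gene pairs. *Gfi1* itself had 424.8 and 391.5 normalised counts. GFI1B and LYL1 are also expressed in erythroid cells, as are TAL1 (log2 ratio -0.10) and LMO2 (0.13). The erythroid genes called higher included *Car1* and *Klf1*, whereas *Gata1* had 37.8 and 39.6 normalised counts. The part of erythroid RNA in the values of these 4 factors was not tested.

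MEIS1 and MECOM had slightly lower values in the KO-labelled library. *Meis1* (chromosome 11, 18879817 to 19018985, minus strand) had 3212 raw counts in WT and 2230 in the KO-labelled one, or 2756 and 2599 normalised counts, and its log2 ratio of -0.085 had an interval just below 0 (-0.16 to -0.0066). It was the sole factor with an interval wholly below 0, and it did not reach an adjusted value under 0.01. *Mecom* (chromosome 3, 29951296 to 30548008, minus strand) had 1211 and 827 raw counts, or 1039 and 963.7 normalised counts (log2 ratio -0.11, interval -0.24 to 0.020). *Meis1* shares 1029 bases of exon with a same-strand transcript, *Gm37818*, and 896 with an antisense one, of its 10532 bases, so its count is uncertain to that extent. *Mecom* shares 81 bases with the antisense gene *Mecomos*, and *Runx1* 106 with *Gm26626*.

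**Figure D3:**
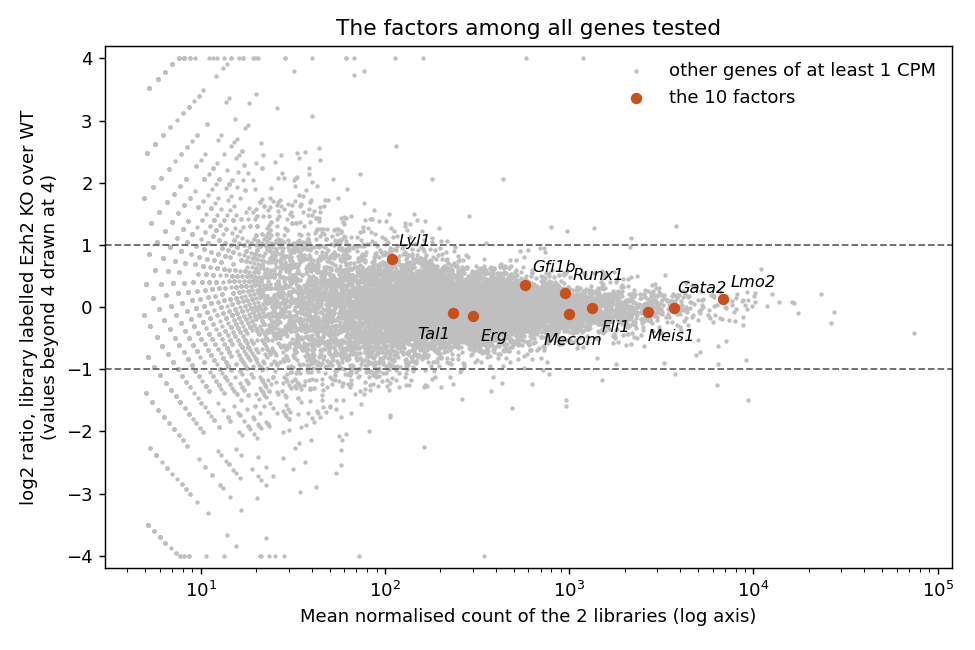
Log2 ratio (vertical axis, with values beyond 4 drawn at 4) against the mean normalised count of the libraries (log axis) for genes of at least 1 CPM (grey) and the 10 factors (orange). The factors have means from 108.7 (*Lyl1*) to 6861 (*Lmo2*), and none reaches the dashed 2-fold lines.

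Levels between genes were compared per length, as RPKM. In WT the order was *Lmo2* (612.5), *Gata2* (139.2), *Fli1* (78.1), *Gfi1b* (55.7), *Meis1* (52.9), *Erg* (18.5), *Mecom* (16.9), *Runx1* (14.7), *Tal1* (11.2) and *Lyl1* (8.97). *Lmo2* ranked 41st from the top of the 24054 genes with a length, and *Lyl1* 5773rd. Counting intervals of neighbours overlapped for *Gfi1b* and *Meis1*, for *Erg* and *Mecom*, and for *Tal1* and *Lyl1*, so their order was not resolved. In the KO-labelled library the leading 5 kept their order, with *Lmo2* at 682.4, *Gata2* at 141.4, *Fli1* at 78.5, *Gfi1b* at 73.1 and *Meis1* at 50.9. There the intervals of *Fli1* (74.0 to 83.2) and *Gfi1b* (67.1 to 79.4) overlapped. *Runx1* (17.6), *Erg* (17.1), *Mecom* (16.0) and *Lyl1* (15.8) followed with overlapping intervals between neighbours, and *Tal1* (10.7) came last. Merged exons count every annotated isoform, and with the longest transcript as the length, an alternative chosen after the data were seen, 5 of the 10 factors changed place in WT, with *Mecom* and *Runx1* above *Erg* and *Meis1* above *Gfi1b*.

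The proteins that assemble around LMO2 were then read on the same scale. LDB1 binds LMO2 and dimerises, E proteins pair with TAL1 or LYL1, and ID proteins hold E proteins away from DNA. *Lmo2* stood at 11.5 times the RPKM level of *Ldb1* in WT and 13.7 times in the KO-labelled library. *Tal1* and *Lyl1* together had 20.2 and 26.4 RPKM, below the summed level of the E proteins *Tcf3*, *Tcf4* and *Tcf12* (79.5 and 88.4). *Id2* had normalised counts of 115.0 (WT) and 200.4 (KO-labelled) (log2 ratio 0.80, interval 0.47 to 1.14). On ratios taken after adding 1, *Id2* was the sole partner at least 1.5-fold higher, with *Tcf12* just short of that threshold (log2 ratio 0.583). *Id1*, at 34 and 14 raw counts, was the sole partner at least 1.5-fold lower, with an interval that held 0 (-1.85 to 0.10). The summed RPKM of *Id1*, *Id2* and *Id3* was 16.1 and 21.4.

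Over the 23 partners and cofactors listed, all of which passed the filter, 0 were called in either direction. Of these, 14 lay above 0 and 9 below, with a median log2 ratio of 0.088 against -0.0032 for all genes tested. With no fold threshold, 4 partners had an adjusted value under 0.01 with higher values (*Ssbp3*, *Tcf12*, *Pbx3* and *Id2*) and 4 with lower values (*Cbfb*, *Kdm1a*, *Hdac2* and *Ctbp1*), beside 21% of all genes tested in either direction. *Cbfb*, the partner of RUNX1, had normalised counts of 945.7 (WT) and 740.0 (KO-labelled) (log2 ratio -0.35, interval -0.50 to -0.21), opposite in sign to *Runx1*. *Kdm1a*, which encodes the LSD1 that GFI1B recruits, had 768.9 and 630.4 (log2 ratio -0.29), opposite in sign to *Gfi1b*. *Ctbp1*, a corepressor bound by MECOM, had 1858 and 1450 (log2 ratio -0.36). *Tcf12* had 270.3 and 405.5 (log2 ratio 0.58) and *Pbx3*, a partner of MEIS1, 144.2 and 213.3 (log2 ratio 0.56).

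**Figure D4:**
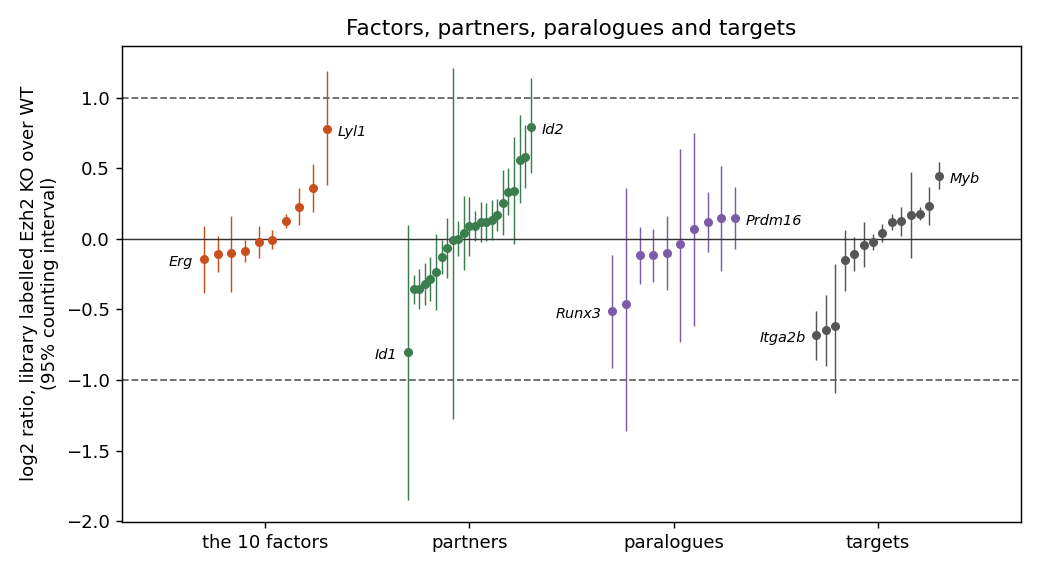
Log2 ratio with exact 95% counting intervals for the 10 factors, 23 partners, 10 paralogues that are not among the factors and passed the filter, and 14 target genes, each ordered from low to high, with the lowest and highest gene named. Dashed lines mark 2-fold, which no point reaches.

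Paralogues outside the group had fewer counts than the factors they were paired with, in shares that take no account of gene length. Of 12 listed, 10 passed the filter and 0 were called, with log2 ratios from -0.51 (*Runx3*) to 0.15 (*Prdm16*) and a median of -0.068. *Gata2* made up 99.0% of counts against *Gata1* in WT and 98.9% in the KO-labelled library, and 88.4% and 89.2% against *Gata3*. *Meis1* made up over 99% against *Meis2* (99.8% and 99.9%), and *Lmo2* over 98% against *Lmo4* (98.3% and 98.2%). *Runx1* made up 86.6% of its sum with *Runx3* in WT (84.6% to 88.5%) and 91.6% in the KO-labelled one (89.6% to 93.2%), where *Runx3* had 157 and 81 raw counts. These intervals did not overlap in the counts as deposited, but they did (85.01% to 89.63% and 89.61% to 93.24%) once WT was thinned to the depth of the KO-labelled library. Against *Runx2* the shares of *Runx1* were 71.5% and 73.0%, with overlapping intervals. *Mecom* held 75.6% and 72.2% against *Prdm16*, with intervals that overlapped (73.5% to 77.7% and 69.5% to 74.8%). After thinning, which moved the WT share to 77.6%, they did not overlap (75.07% to 79.94% and 69.53% to 74.81%). Thinning was a single random draw that discards WT reads and was not repeated. The changes for *Runx3* and *Prdm16* cannot be told apart from the accident of that draw. The intervals of *Tal1* with *Lyl1* and of *Gfi1b* with *Gfi1* lay apart both in the deposited counts and in the thinned draw. The share of other gene pairs with intervals apart was not tested, so this does not set the listed pairs apart. On another measure, which is of single genes, 21% of all genes tested had an adjusted value under 0.01 at any fold. Differences beyond counting error were thus common.

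**Figure D5:**
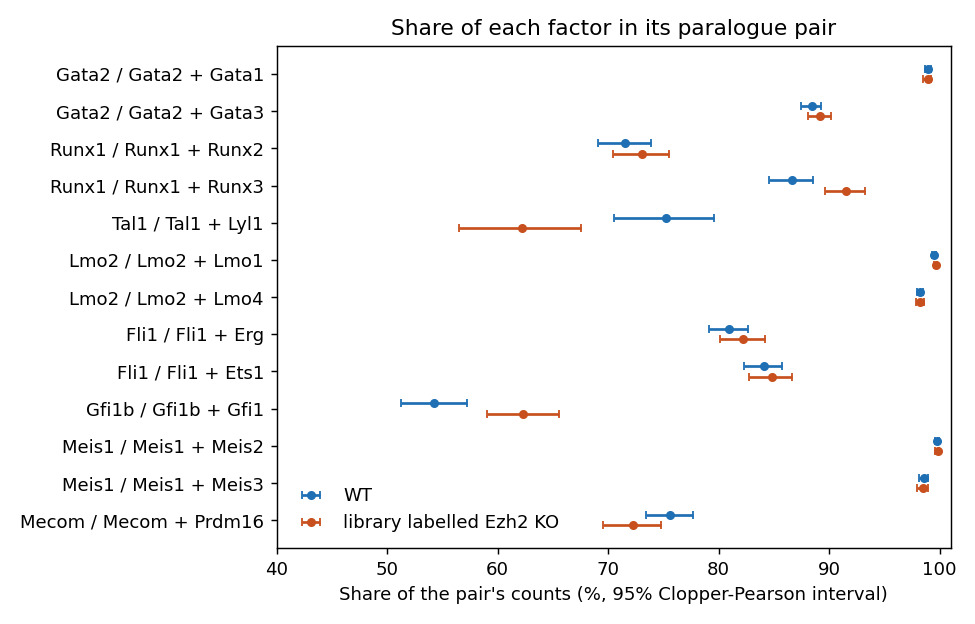
Share of each factor in the summed counts of the factor and a paralogue (horizontal axis, percent, from 40) in WT (blue) and the KO-labelled library (orange), with 95% Clopper-Pearson intervals. The shares of *Tal1* with *Lyl1* (75.3% and 62.2%) and of *Gfi1b* with *Gfi1* (54.3% and 62.3%) lie apart, while those of *Gata2* with *Gata1* (99.0% and 98.9%) lie together.

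Genes that these factors are known to regulate were listed as well. Of 14 targets, all passed the filter and 0 were called, 7 lay above 0 and 7 below, and the median log2 ratio was 0.0087. With no fold threshold, 4 targets had an adjusted value under 0.01 with higher values and 2 with lower values (*Itga2b* and *Pf4*). Among all genes tested, 21% had such a value in either direction. The stem cell receptor gene *Kit* (5202 and 5120 normalised counts, log2 ratio -0.023) was abundant in both libraries, as was *Nfe2* (4047 and 4161). *Myb*, a factor of cycling progenitors, had 1533 and 2091 (log2 ratio 0.45, interval 0.35 to 0.54), the highest ratio of the list. The lowest were those of the megakaryocyte genes *Itga2b* (750.9 and 467.3, log2 ratio -0.68), *Pf4* (356.1 and 227.2, log2 ratio -0.65) and *Gp1ba* (109.8 and 71.1, log2 ratio -0.62), which were at least 1.5-fold lower. *Gp9*, from the same lineage, had 170.8 and 192.3 (log2 ratio 0.17), with an interval that held 0 (-0.14 to 0.48).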

How the data were processed

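RNA from sorted HSCs was amplified with a SMARTer low-input kit and sequenced (1 WT library and 1 labelled Ezh2 KO). The authors deposited whole-number read counts, 1 value per gene symbol, without normalisation. The submitters' processing notes name mm10, TopHat2 2.0.13, Bowtie2 2.1.0, StringTie, edgeR and bedtools, without their roles. The closing 5 entries carry the names htseq-count writes, and the strand setting is not given in the sources used here. Those entries, 56.1% (WT) and 56.9% of reads, were left out of gene totals.

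Size factors by the median-of-ratios method (DESeq2 1.42.0, R 4.3.3) were 1.17 and 0.858, and normalised counts are counts over these. With 1 library per group no spread can be estimated, and the quasi-likelihood test of edgeR could not be fitted. In its place an exact two-sided binomial test of the 2 counts with Benjamini-Hochberg adjustment was run over all genes of at least 1 CPM, and intervals on ratios and shares are exact Clopper-Pearson and on levels exact Poisson. Lengths and positions came from GENCODE M21 (GRCm38, the assembly of mm10), matched for 23384 current symbols and 670 older names. A level of 3 counts corresponds to 0.521 and 0.722 CPM. The procedure was tested on data simulated with counting error only, which does not cover variation between libraries. The factors, the lists and the comparisons were chosen with earlier results of these data known. Named by rule are all factors, *Ezh2*, the listed paralogues, called genes of the lists and defining cell markers that differ by at least 2-fold. Other markers, partners and targets, *Xist*, *Ddx3y* and *Fos* were named after their values were seen, and the bands of expression and upstream motifs were likewise added. Values of some listed genes are not reported here. Alternatives used edgeR 4.0.16 and Python 3.11.15 (scipy 1.17.1).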

Additional observations from a re-analysis of the deposited data

Results flagged for a closer look

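Reads with more than 1 alignment, which enter no count of the 10 factors, made up 12.3% of all entries in the KO-labelled library (95% Wilson interval 12.25% to 12.29%) and 10.7% in WT (10.73% to 10.77%). These reads were not used for any gene, and their share was above that in WT by more than counting error, with no replicate to show how far it varies between libraries.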

How the results depend on the processing

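No paired analysis was possible because there is a single library on each side, which also leaves none to leave out. Scaling to the summed counts of the 10 factors and the length of the longest transcript were chosen after the data were seen. The number of factors called stayed at 0 in each direction under every alternative with the 2-fold threshold, including exact tests in edgeR at CVs set to 0.2 or 0.4. No factor reached 2-fold under any scaling or after thinning. *Lyl1* came nearest, at a log2 ratio of 0.81 under total-count scaling and 0.95 in the single thinned draw. The edgeR tests and the filters kept the main ratios, so they could not have added a call. At 1.5-fold 1 factor was called higher (*Lyl1*), and with no fold threshold 4 were. Over all genes, 353 were called higher and 290 lower. A minimum of 10 CPM gave 96 and 115, the 1.5-fold threshold 626 and 636, no fold threshold 1218 and 1425, an assumed CV of 0.2 gave 41 and 22, and a CV of 0.4 gave 8 and 2. The CVs were assumed and not measured. The log2 ratio of *Lmo2* became 0.075 when scaled to the summed counts of the factors, and that of *Lyl1* ran from 0.72 to 0.95 over 8 alternatives. *Gata2* changed sign under 3 of 8 alternatives and *Fli1* under 2, and the other 8 factors kept theirs. With the longest transcript as length, 5 of the 10 factors held their place in the WT order and 8 in the KO-labelled order. Depth limits *Lyl1* most, at 93 and 118 counts.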
